A study of Mus musculus with 7 samples.

Results

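The genes of the circadian clock were followed in whole hearts of 7 mdx mice. The 10 genes were Arntl (also called Bmal1), Clock, Npas2, Per1, Per2, Per3, Cry1, Nr1d1, Nr1d2 and Dbp, taken as every probe set (the set of short oligonucleotides that reports 1 transcript) whose single annotated gene is one of them. They were represented by 24 of 45037 probe sets, and by 10 of the 18193 genes on the array. All 7 were male, 7 months old and mdx, a strain that lacks dystrophin and serves as a model of Duchenne muscular dystrophy. A Cre transgene driven by the Myh6 promoter, active in cardiomyocytes, had removed floxed IKKβ, an activating kinase of NF-κB, in 4 mice (labelled Myh6-cre;IKKβ[delta], here mdx HRTΔIKKβ). The other 3 carried floxed IKKβ, with no Cre listed, and the study describes them as littermates (mdx IKKβf/f). Each heart had its own Affymetrix array, and values are on the log2 scale after RMA (background correction, quantile normalization and a summary per probe set), so that 1 unit is a doubling. The study names no question about the clock, and the clock genes were read here for how they varied between hearts and between genotypes.

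The mammalian clock is a loop of transcription. BMAL1, the product of Arntl, pairs with CLOCK or its relative NPAS2 and activates Per, Cry, Nr1d and Dbp genes through E-box elements, and the PER and CRY proteins then block that activation. The Nr1d proteins (REV-ERBs) repress Arntl, Clock and Npas2 through RORE elements, so that in the heart, as in other tissues, the RNA of Arntl and that of Dbp and Per3 peak at opposite times of day. Levels of both arms in 1 tissue sample therefore depend on the time at which it was taken. The mice were kept on a light-dark cycle, and the sources used here do not give the time of day at which each heart was collected.

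Promoter windows from RefSeq (GRCm38.p6, 250 bases before to 50 after an annotated start) were found for 9 of the 10 genes (all but Per2), in 13 windows. Searched on both strands were the E-box CACGTG, the D-box TTATGTAA that DBP and its relatives TEF and HLF bind, and the RORE core TAGGTCA. These motifs do not overlap each other. They were present in 7.15%, 0.938% and 2.61% of all 32851 windows. Matches in the windows of the 10 genes were 2 E-boxes, 2 D-boxes (both in Per3) and 1 RORE core. The stretches that hold them are shown because the genes concerned sit in opposite arms of the loop, with the motif in capitals and the strand of the gene.
Per3 (chr4:151044796-151044890, minus strand, before the start): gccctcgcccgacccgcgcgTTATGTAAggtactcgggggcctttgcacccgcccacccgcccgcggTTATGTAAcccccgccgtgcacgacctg
Per1 (chr11:69098763-69098808, plus strand, before the start): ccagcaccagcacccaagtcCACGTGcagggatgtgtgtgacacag
Cry1 (chr10:85185089-85185134, minus strand, before the start): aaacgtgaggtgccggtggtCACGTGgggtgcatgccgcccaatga
Arntl (chr7:113207530-113207559, plus strand, just after the start): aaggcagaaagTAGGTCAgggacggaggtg
A match describes these letters and is no measured binding site.

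The arrays were alike in overall level (medians 6.73 to 6.75), and each pair correlated at 0.987 or more over all probe sets. The heart was visible in its own markers: Myh6, Tnnt2 and Myl2 were at 14.74 or above on every array. Ikbkb, the targeted gene, averaged 8.72 ± 0.19 (SD, n = 4) in mdx HRTΔIKKβ and 8.90 ± 0.11 (SD, n = 3) in mdx IKKβf/f hearts at its brightest probe set, a difference of -0.18 ± 0.11 (limma, adjusted p = 0.801). The sources used here do not say whether that probe set lies in the deleted part, and other cells of the heart keep the gene. By qPCR of whole hearts, the study reports reduced Ikbkb expression in mdx HRTΔIKKβ mice. Of the mdx HRTΔIKKβ hearts, replicates 2 and 3 stood apart from the other 5 hearts in the clock genes, as described next, and the main results are also given without them.

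The activators came first. Arntl measured 7.38, 9.36, 9.27 and 7.48 in mdx HRTΔIKKβ replicates 1 to 4, and 7.62, 7.89 and 7.16 in mdx IKKβf/f replicates 1 to 3. Replicates 2 and 3 of mdx HRTΔIKKβ were thus 3.5-fold and 3.29-fold above the mean of the controls, while replicates 1 and 4 lay inside the range of the controls. Npas2, which can stand in for Clock, showed the same order, with 6.05, 7.62, 7.37 and 6.01 in mdx HRTΔIKKβ and 6.05, 6.25 and 5.61 in mdx IKKβf/f hearts. The same hearts were high again, by 3.13-fold and 2.63-fold against the mean of the controls. Clock, whose RNA cycles little in most tissues, measured 9.45, 10.04, 9.90 and 9.33 against 9.30, 9.48 and 9.39. Its span was smaller, 0.74 over the 7 hearts against 2.20 for Arntl, but replicates 2 and 3 were again the highest. Across the 8 probe sets of the 3 activators, replicates 2 and 3 of mdx HRTΔIKKβ exceeded every control in 8 of 8, and replicates 1 and 4 in 0 of 8 (over all probe sets, these 4 hearts exceeded every control in 28.1%, 25.4%, 24.3% and 22.7%, in the order of their numbers).

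**Figure D1:**
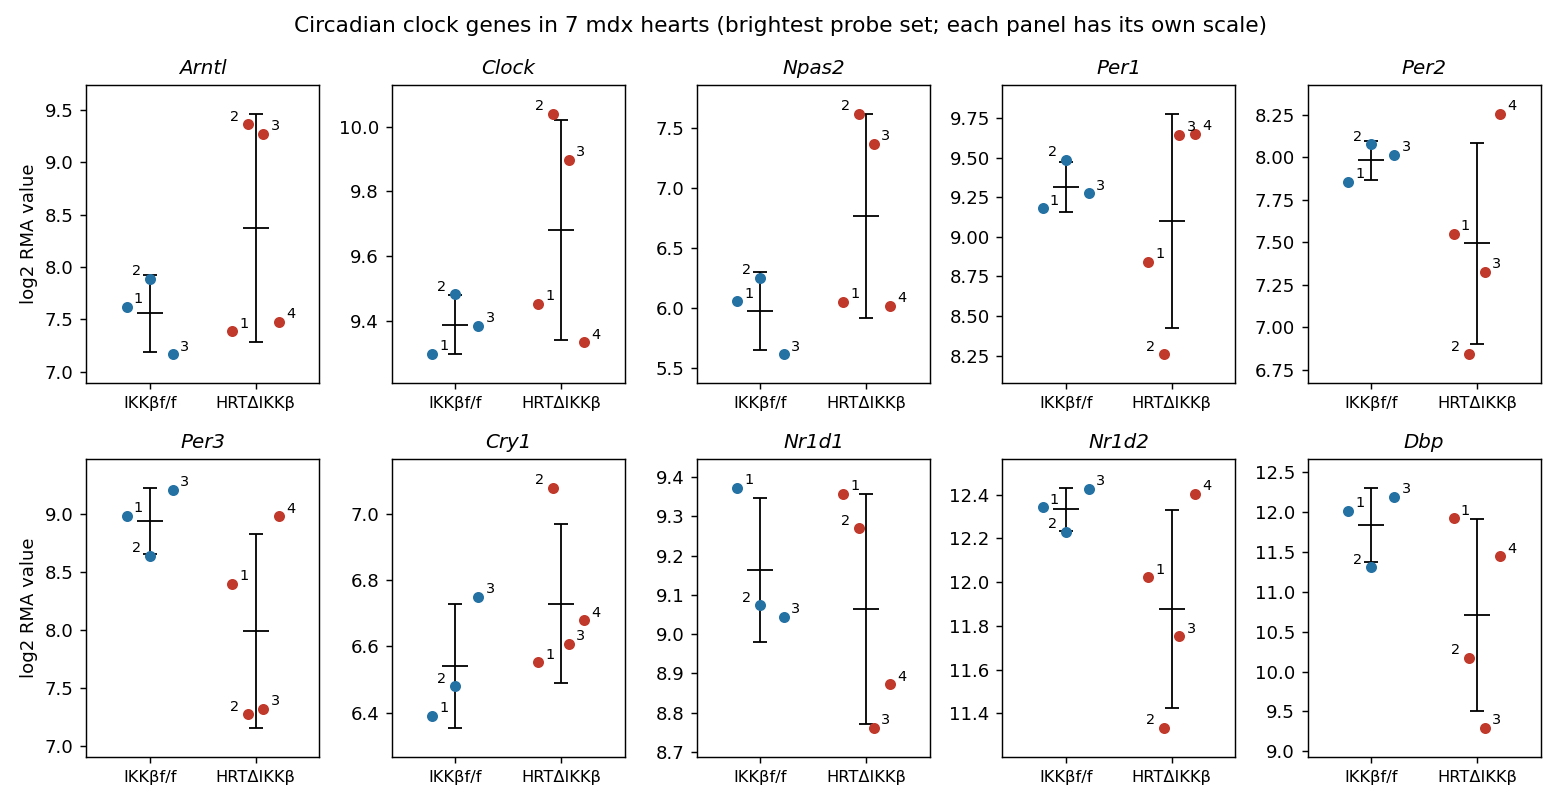
Log2 RMA values (y axis, scaled separately per gene) of the 10 clock genes at their brightest probe sets. Blue points are the 3 mdx IKKβf/f and red points the 4 mdx HRTΔIKKβ hearts, labelled by replicate number, and bars are mean ± SD. Replicates 2 and 3 of mdx HRTΔIKKβ are the highest hearts for Arntl, Clock and Npas2 and the lowest for Per2, Per3, Nr1d2 and Dbp.

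The targets of the activators ran the other way in the same hearts. Dbp, a transcription factor of the PAR bZip family whose RNA cycles strongly, measured 11.92, 10.17, 9.29 and 11.45 in mdx HRTΔIKKβ replicates 1 to 4 and 12.01, 11.31 and 12.20 in mdx IKKβf/f replicates 1 to 3. Replicate 3 of mdx HRTΔIKKβ was 5.85-fold and replicate 2 was 3.17-fold below the mean of the controls. The lowest and the highest heart differed 7.49-fold, the widest span of the 10 genes at their brightest probe sets. The second Dbp probe set had the same 2 lowest hearts (8.94 and 8.09, against 10.13 to 10.92 in the other 5).

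Per3, the Per gene with the D-boxes shown above, measured 8.39, 7.27, 7.32 and 8.97 in mdx HRTΔIKKβ hearts and 8.98, 8.64 and 9.20 in mdx IKKβf/f hearts. Replicates 2 and 3 were 3.18-fold and 3.08-fold below the mean of the controls, and replicate 1 also lay below the lowest control. All 6 Per3 probe sets had both hearts at or below the mean of the controls. Per2, a repressor in the loop, measured 7.55, 6.84, 7.32 and 8.25 against 7.86, 8.08 and 8.01. Here replicates 1, 2 and 3 were all below the lowest control and replicate 4 was above the highest. Nr1d2, which encodes REV-ERBβ, measured 12.02, 11.33, 11.75 and 12.40 against 12.34, 12.23 and 12.43, and had the same 3 hearts below the lowest control.

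Per1, Nr1d1 and Cry1 did not follow this order. Per1 measured 8.84, 8.26, 9.64 and 9.65 in mdx HRTΔIKKβ hearts and 9.18, 9.49 and 9.28 in mdx IKKβf/f hearts. It was lowest in replicate 2 of mdx HRTΔIKKβ, 2.08-fold below the mean of the controls, but replicate 3 was 1.26-fold above it. Per1 thus separated the pair of hearts that Arntl and Per3 put together. Nr1d1, which encodes REV-ERBα, measured 9.36, 9.27, 8.76 and 8.87 against 9.37, 9.07 and 9.04, so that replicates 3 and 4 were low and replicate 2 lay inside the range of the controls. Cry1, a repressor that peaks later than the Per genes, measured 6.55, 7.08, 6.61 and 6.68 against 6.39, 6.48 and 6.75. Only replicate 2 of mdx HRTΔIKKβ was above the highest control.

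The further probe sets of each gene were read for the same order of hearts. The other 3 probe sets of Clock and the second of Npas2 had replicates 2 and 3 of mdx HRTΔIKKβ as their highest hearts. The second Arntl probe set differed in size: it measured 7.03, 7.05, 7.46 and 7.03 in mdx HRTΔIKKβ and 6.84, 7.03 and 6.81 in mdx IKKβf/f hearts, so that replicate 2 was only just above the highest control and 3 hearts shared 1 value. The probe sets of Per2 disagreed on replicate 3, which was the lowest heart in one (6.30, against 6.56 in replicate 2) and above replicate 2 in the other two. In each of them replicate 4 was the highest heart, at 8.25, 8.62 and 7.17. The dim Per3 probe set with the smallest difference (-0.06 ± 0.08) had 1 value in 4 of 7 hearts. The second Nr1d2 probe set measured 9.02, 8.15, 8.78 and 9.62 against 9.41, 9.23 and 9.23, so that replicates 1, 2 and 3 were again below the lowest control, and replicate 4 was above the highest.

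Each heart was then summarised by 2 scores, the mean of the 3 activators and the mean of Per1, Per2, Per3, Nr1d1, Nr1d2 and Dbp, after each gene was centred on its mean over the 7 hearts. Cry1 was left out of both. The activator score was 1.01 in replicate 2 and 0.85 in replicate 3 of mdx HRTΔIKKβ, and between -0.61 and -0.13 in the other 5 hearts. The repressor and output score of these replicates was -0.75 and -0.60, and it lay between 0.07 and 0.42 in the other 5. Both arms thus placed the same hearts at opposite ends. The difference of the scores, activators minus repressors and outputs, was -0.44, 1.76, 1.44 and -0.72 in mdx HRTΔIKKβ replicates 1 to 4 and -0.69, -0.32 and -1.03 in mdx IKKβf/f replicates 1 to 3. Replicates 1 and 4 of mdx HRTΔIKKβ fell between the controls. Since the hearts form separate sets in Arntl (9.27 and 9.36 against 7.16 to 7.89), no correlation between the arm scores is given.

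**Figure D2:**
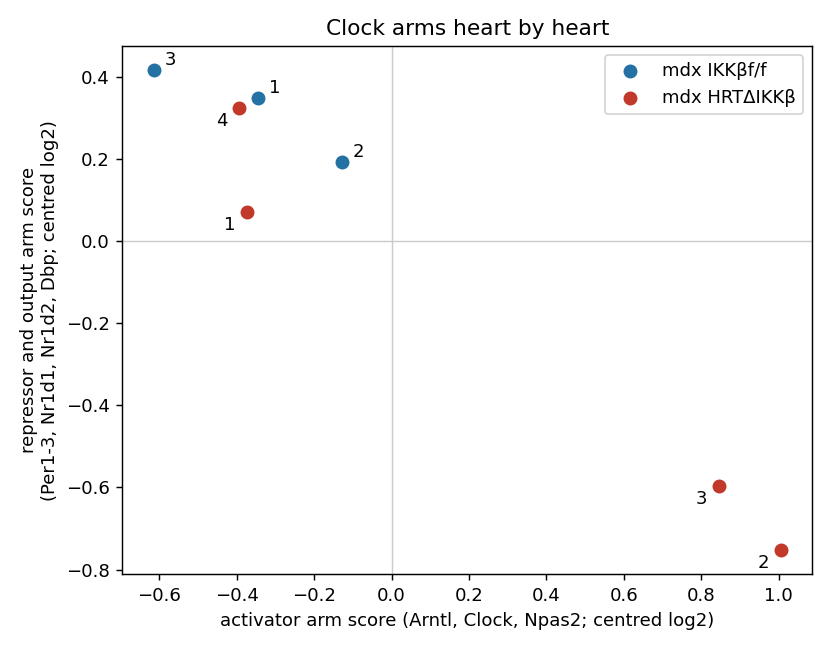
Mean of the activators Arntl, Clock and Npas2 (x axis) against the mean of Per1, Per2, Per3, Nr1d1, Nr1d2 and Dbp (y axis) in each heart, both as log2 values centred on each gene's mean over 7 hearts. Replicates 2 and 3 of mdx HRTΔIKKβ (red) lie at the lower right, and the other 2 lie with the 3 mdx IKKβf/f hearts (blue) at the upper left.

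The hearts that did not stand apart still differed among themselves. Of the 15 probe sets of repressors and outputs, replicate 1 of mdx HRTΔIKKβ was below every control in 8 and above every control in 1, whereas replicate 4 was below in 2 and above in 6. Over all probe sets these hearts were below every control in 25.3% and 22%. Replicates 2 and 3 were below every control in 14 and 13 of the 15 (34.4% and 23.3% over all probe sets). Within mdx IKKβf/f, Dbp spanned 11.31 to 12.20 and Arntl 7.16 to 7.89, and replicate 2 had the highest Arntl and the lowest Dbp of the 3, while replicate 3 had the lowest Arntl and the highest Dbp.

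In spread between hearts the clock genes ranked high on the array. The SD over the 7 hearts was 1.08 for Dbp, 0.91 for Arntl, 0.80 for Per3 and 0.76 for Npas2, which was above that of 99.5%, 99.3%, 99.1% and 99% of all genes. Nr1d1 (0.24) and Cry1 (0.22) were the least variable, above 88.8% and 87.4% of genes. The median SD of the 10 was 0.50, against 0.11 for all genes. A span of at least 1 log2 unit was found for 7 of the 10, against 4.79% of all genes, and for 14 of the 24 probe sets, against 3.86% of all. All 10 had a larger SD in mdx HRTΔIKKβ than in mdx IKKβf/f hearts, which was the case for 59.9% of all genes. Without replicates 2 and 3 of mdx HRTΔIKKβ this spread was smaller. These hearts were left out for their values in the same clock genes, so a smaller spread of the 10 follows from the choice. The shares over all genes given for this setting are therefore no even background. Over the other 5 hearts the SD was 0.38 for Dbp, 0.32 for Per3, 0.27 for Arntl and 0.23 for Npas2, above that of 96.4%, 94.7%, 92.3% and 89.6% of all genes, and the median of the 10 was 0.25 against 0.10. A span of at least 1 log2 unit was then found for 0 of the 10 genes (3.21% of all genes) and for 1 of the 24 probe sets, of Per2 (2.45% of all probe sets). The SD was larger in mdx HRTΔIKKβ for 5 of the 10 (47.1% of all genes), namely Per1, Per2, Per3, Nr1d1 and Nr1d2.

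The genotypes were then compared as group means. At their brightest probe sets Arntl, Clock, Npas2 and Cry1 averaged higher in mdx HRTΔIKKβ hearts, and Per1, Per2, Per3, Nr1d1, Nr1d2 and Dbp averaged lower, and the other probe sets of each gene had the same sign, so that 9 of the 24 were higher and 15 lower. By limma, with p-values adjusted (Benjamini-Hochberg) over all 45037 probe sets, 0 of the 24 and 0 of all (0%) passed. At an unadjusted p of 0.05 limma counted 1 of the 24, a Per3 probe set (-0.66 ± 0.28, unadjusted p = 0.0481), against 6.07% of all probe sets (3.31% higher and 2.76% lower), and the methods' t-test counted 0. The groups did not overlap in that same probe set alone, against 5.44% of all probe sets. A share of 1 in 24 is not above either background. The p-values rest on the spread between 4 and 3 hearts.

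The largest differences were those of Dbp, Per3, Arntl and Npas2. Dbp differed by -1.13 ± 0.61 (SE; 95% interval -2.54 to 0.28, adjusted p = 0.796) and Per3 by -0.95 ± 0.42 (-1.93 to 0.03, adjusted p = 0.796). Arntl differed by 0.82 ± 0.54 (-0.45 to 2.09, adjusted p = 0.809) and Npas2 by 0.79 ± 0.43 (-0.21 to 1.79, adjusted p = 0.796). These 4 of 10 were past 1.5-fold between the means, against 1.45% of all genes, and all 4 intervals, from the limma fit, include 0. Per2 (-0.49 ± 0.29), Nr1d2 (-0.46 ± 0.22), Clock (0.29 ± 0.17), Per1 (-0.21 ± 0.33), Cry1 (0.19 ± 0.14) and Nr1d1 (-0.10 ± 0.16) had adjusted p-values from 0.796 to 0.91 in limma.

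The differences between the means were smaller without replicates 2 and 3 of mdx HRTΔIKKβ. Both were left out after their clock values were seen, so a smaller difference in these genes follows from the choice. It leaves 2 mdx HRTΔIKKβ hearts. Without both, Arntl stood at -0.13, Npas2 at 0.06, Clock at 0.0045, Dbp at -0.15 and Per3 at -0.26, and 0 of the 24 probe sets reached an unadjusted p of 0.05 (5.22% of all probe sets did). The difference of the arm scores, 1.19 between the group means, was 0.10 without them. Without replicate 4, in contrast, 12 of the 24 reached an unadjusted p of 0.05 (2 higher, 10 lower, in Clock, Npas2, Per2, Per3 and Nr1d2), where 6.18% of all probe sets did, and their smallest adjusted p was 0.757. The count was 4 without replicate 1 (5.66% of all probe sets). It was 0 without replicate 2 or 3 (4.48% and 7.46%), and 0 without mdx IKKβf/f replicate 1, 2 or 3 (4.71%, 4.77% and 5.97%). The part of collection time in these values was not tested.

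**Figure D3:**
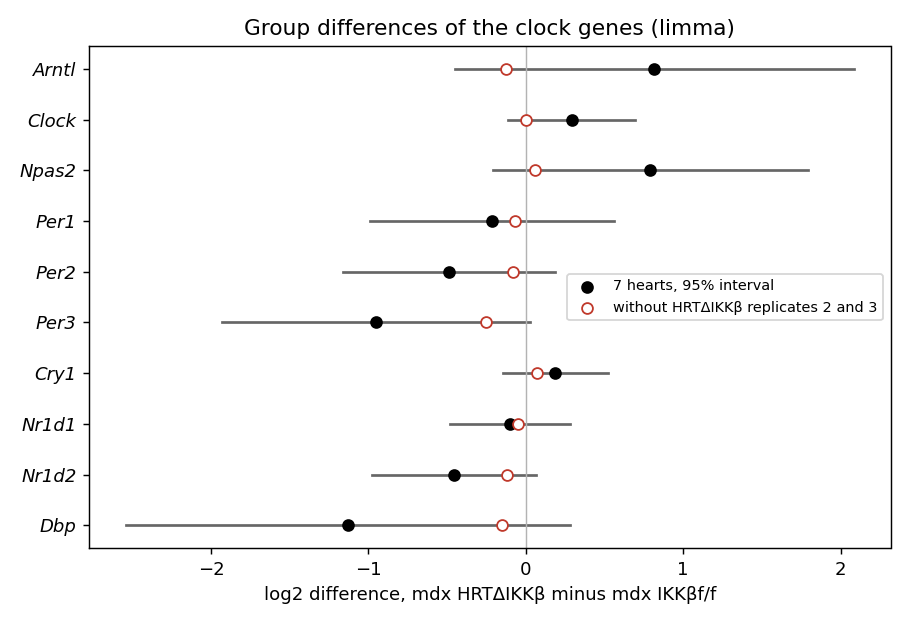
Difference in mean log2 value (x axis; positive where mdx HRTΔIKKβ is higher) of the 10 clock genes at their brightest probe sets. Black points are the values over 7 hearts with 95% intervals from limma, all of which include 0, and open red circles are the values without mdx HRTΔIKKβ replicates 2 and 3, where Arntl is -0.13 and Dbp is -0.15.

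Other genes of the clock were read from a list of 28, of which 25 were on the array through a probe set of 1 gene. In mdx HRTΔIKKβ hearts 9 of these averaged higher and 16 lower, with a median difference of -0.11 against -0.0056 over all genes. At an unadjusted p of 0.05 limma counted 1 higher and 2 lower, against 6.2% of all genes (3.25% higher and 2.95% lower), and 0 passed adjustment. Groups without overlap were found for 5 of the 25, against 5.67% of all genes. Csnk1d, a kinase that marks PER proteins for degradation, was 0.15 ± 0.06 higher (limma, unadjusted p = 0.0323). Sirt1, a deacetylase that acts on clock proteins, was 0.20 lower (-0.20 ± 0.08, limma, unadjusted p = 0.0337). Ciart, a repressor of the activators with strong daily rhythm, differed by -0.80 ± 0.32 (limma, unadjusted p = 0.0389).

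Ciart, Tef and Hlf of this list were low in the same hearts as Dbp. Ciart measured 8.19, 6.88, 7.28 and 8.12 in mdx HRTΔIKKβ replicates 1 to 4 and 8.58, 8.21 and 8.45 in mdx IKKβf/f hearts. Tef and Hlf, the relatives of Dbp, were lowest in replicates 2 and 3 as well. Tef measured 11.31, 10.38, 10.66 and 11.57 against 11.45, 11.35 and 11.68. Hlf measured 8.38, 7.65, 8.23 and 8.99 against 8.75, 8.46 and 9.09. Nfil3, a repressor at D-boxes named after its values were seen, was highest in those hearts, with 7.93, 8.66, 8.61 and 8.30 against 7.66, 8.17 and 8.15. Cry2 (8.44 and 8.24 in replicates 2 and 3 of mdx HRTΔIKKβ), Bhlhe41 (6.53 and 6.14) and Csnk1e (9.45 in both) were lowest there too. Prkaa1 (6.95 in both) and, narrowly, Csnk1d (11.48 and 11.44) were highest there. Cry2, Bhlhe41, Csnk1e and Prkaa1 were also named after their values were seen. The rest of the list did not share this order. Bhlhe40, a repressor induced through E-boxes and also named after its values were seen, measured 10.80, 10.62, 9.79 and 10.28 against 10.76, 10.23 and 10.53. Without replicates 2 and 3 of mdx HRTΔIKKβ, 1 of the 25 genes reached an unadjusted p of 0.05 in limma (5.22% of all probe sets).

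**Figure D4:**
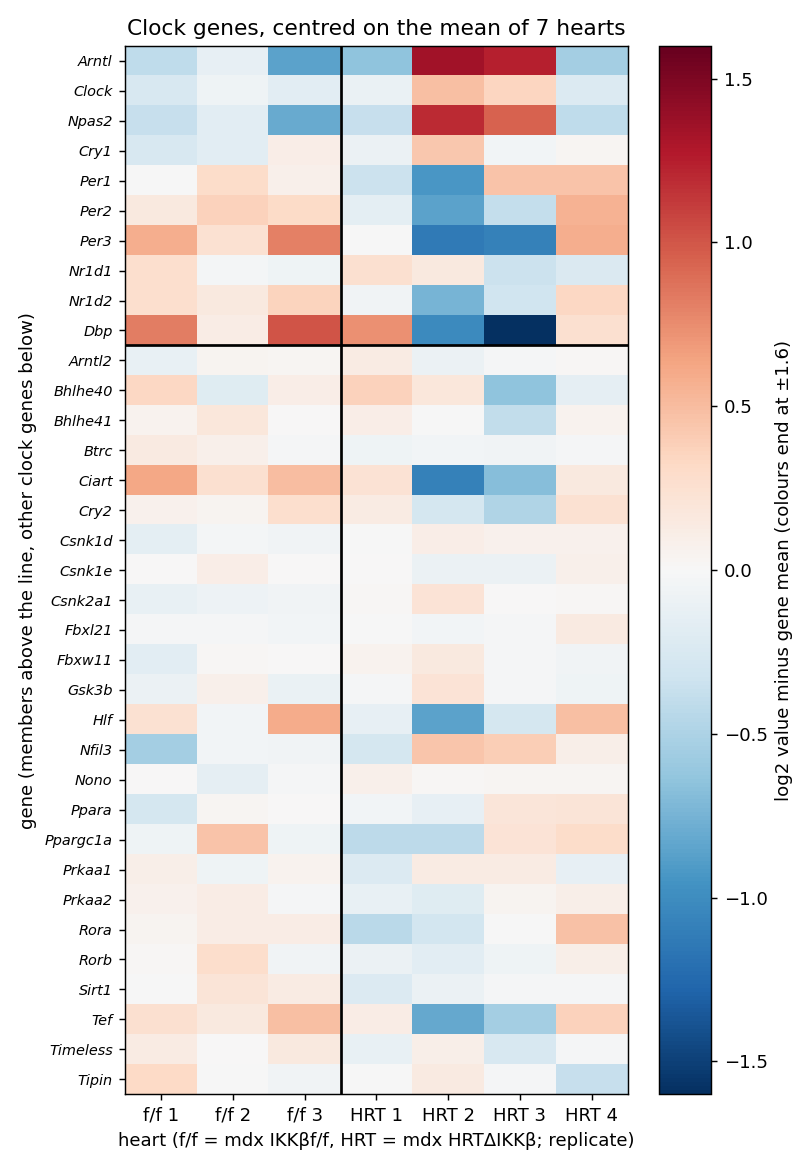
Log2 values centred on each gene's mean over 7 hearts (colour) for the 10 clock genes (above the line) and the 25 other clock genes (below), with a column for each heart. Replicates 2 and 3 of mdx HRTΔIKKβ are red for Arntl and Npas2 and blue for Per3, Dbp, Ciart and Tef.

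The genes whose pattern over the hearts was closest to the difference of the arm scores were looked up among 1098 genes outside the 10 with a mean of at least 6 and an SD of at least 0.3. At the negative end stood Tef (Pearson r = -0.99 over 7 hearts), Ciart (-0.97), Lonrf1 (-0.93), Hlf (-0.89), Fibin (-0.88) and Mid1ip1 (-0.88). Of these 6, 3 are clock genes of the list, which holds 25 of all 18193 genes. The share of the list among the 1098 was not counted. The score was itself built from clock genes in the same hearts, so the ranking is a description. These coefficients are a measure of likeness over samples that form separate sets, so they were also computed without replicates 2 and 3 of mdx HRTΔIKKβ. Over the other 5 hearts they were -0.94 for Tef, -0.92 for Hlf, -0.87 for Lonrf1 and -0.78 for Fibin, but -0.51 for Ciart and -0.30 for Mid1ip1.

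A further list held 30 genes known or thought to cycle in the heart, of which 25 were on the array. Past an unadjusted p of 0.05, limma counted 2 that were higher and 1 that was lower (3.25% and 2.95% of all genes), and 0 passed adjustment. The counts were also 2 and 1 without replicates 2 and 3 of mdx HRTΔIKKβ. They were Cdkn1a, an inhibitor of the cell cycle (1.56 ± 0.44, limma, unadjusted p = 0.00859), Pik3r1, a subunit of PI3 kinase (0.37 ± 0.13, unadjusted p = 0.0252), and Cirbp, an RNA-binding protein induced by cold (-0.57 ± 0.21, unadjusted p = 0.0261). Noct, which encodes nocturnin and has a daily rhythm (0.59 ± 0.26), Usp2, a deubiquitinase driven by the clock (-0.32 ± 0.15), and Pdk4, a kinase that restrains glucose oxidation (0.61 ± 0.32), followed. Without replicates 2 and 3 of mdx HRTΔIKKβ the counts were also 2 higher and 1 lower (5.22% of all probe sets). Whether these were the same genes was not examined. Cdkn1a was highest in those 2 hearts (11.06 and 11.20, against 9.68 and 9.87 in the others and 8.42 to 9.55 in controls). A span of at least 1 log2 unit was found for 14 of the 25 (4.79% of all genes), or 6 over the 5 hearts without that pair (3.21%), and the median difference of -0.0052 was close to that of all genes.

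Markers of other cells moved with replicate 2 but not in the same way with replicate 3. In replicate 2 the scores (mean centred log2) were the highest of all hearts for neutrophil (3.50), airway and lung (2.95), B and plasma cell (2.19) and adipocyte markers (1.61). Replicate 3 measured -1.20, -0.99, 0.71 and -0.10, and the controls ranged from -1.50 to 2.99, -1.18 to -0.59, -1.45 to -0.25 and -0.92 to 0.11. Of these lists, 6 of 7, 6 of 6, 6 of 8 and 6 of 8 genes were on the array. Cardiomyocyte markers (10 of 10) scored between -0.03 and 0.05 in mdx HRTΔIKKβ and between -0.12 and 0.02 in mdx IKKβf/f hearts. Other lists differed between the groups. Skeletal muscle markers averaged lower in mdx HRTΔIKKβ hearts for 13 of 13 genes (median difference -2.11), with scores from -1.29 to 0.15 there and of 3.89, -1.02 and 0.64 in mdx IKKβf/f replicates 1 to 3. Atrial markers averaged higher for 8 of 8, with scores from -0.19 to 0.77 against 0.28, -1.32 and -0.25. Macrophage markers scored from -0.13 to 0.28 against -0.27 to -0.07. Of these, 5 of 12 passed an unadjusted p of 0.05 in limma (4 of them higher), with 0 past adjustment. The share over all genes was 6.2% (3.25% higher and 2.95% lower). The count was 3 of 6 for B and plasma cell, 2 of 8 for atrial, 2 of 7 for endothelial and 2 of 6 for adipocyte markers, all higher. It was 0 for skeletal muscle, neutrophil, airway and lung, fibroblast, and cardiomyocyte markers. The part of these markers in the values of the clock genes was not tested. In whole hearts, fewer cells of a type and less RNA per cell cannot be told apart.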

How the data were processed

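Whole-heart RNA of 7 mdx mice was measured on Affymetrix mouse arrays, 1 array for each heart. The deposited log2 values are RMA output of the authors. Partek and Affymetrix Expression Console are both named, in the methods and the submitters' processing notes. Versions, and which program made the table, are not given in the sources used here. RMA compresses differences at low signal, and its quantile step hides a global shift. Intensities have no depth, so that the number of arrays limits the precision.

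Groups, from the labels, were compared over all 45037 probe sets with limma 3.58.1 in R 4.3.3, with Benjamini-Hochberg adjustment and no filter, two-sided. The methods name no test for single probe sets. The procedure was tested on simulated data. Genes were named through the platform annotation and RefSeq identifiers (34945 probe sets with 1 symbol, 932 with several, 9160 with none, the last 2 kinds unused). A gene was represented by its brightest probe set (highest mean over 7 hearts). The clock genes, the lists, written from textbook knowledge, and the tests were chosen with earlier results of these data known. By rule, the genes named were all 10 members, Ikbkb, up to 6 genes of each list by smallest unadjusted p, and the 6 most and 6 least correlated with the arm contrast. Nfil3, Bhlhe40, Cry2, Bhlhe41, Csnk1e, Prkaa1 and the heart markers fall outside the rule. Exact permutation tests of Arntl against 9 members used all pairings. Alternatives were median centring, a second quantile normalization, filters, other variance models, array weights, the methods' t-test, the replicate number as a block, means over probe sets and left-out hearts.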

Additional observations from a re-analysis of the deposited data

Results flagged for a closer look

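Of 46 genes and scores examined in the 4 mdx HRTΔIKKβ hearts, 2 had a single heart far from the other 3 by Dixon's criterion, where chance gives about 1 in 20. The casein kinase gene Csnk2a1 was 10.15 in replicate 2 and 9.93 to 9.95 in the others (gap over range 0.921). The transcription factor gene Egr2 was 6.13 in replicate 4 and 6.67 to 6.72 in the others (0.907). None of the 10 clock genes met it at the brightest probe set. The criterion looks for 1 heart far from the other 3. It could not flag genes in which replicates 2 and 3 stood apart together, such as Arntl (gap over range 0.046).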

How the results depend on the processing

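Of 150 values of the 10 clock genes under other settings, 4 changed sign and 0 passed an adjusted p of 0.05. Over hearts left out singly Per1 (-0.21) ran from -0.40 to 0.066, positive without mdx HRTΔIKKβ replicate 2, and Nr1d1 (-0.10) from -0.20 to 0.0064, positive without mdx IKKβf/f replicate 1 and, at 0.0028, without mdx HRTΔIKKβ replicate 3. Arntl was -0.13 without both mdx HRTΔIKKβ replicates 2 and 3, a setting chosen after seeing the data. Over hearts left out singly, the number of clock probe sets at an unadjusted p of 0.05 (1) ran from 0 to 12, that of other clock genes (3) from 1 to 5, that of rhythmic heart genes (3) from 1 to 5, and that of all probe sets past adjustment (0) from 0 to 1, the 1 without mdx HRTΔIKKβ replicate 1. Among these settings 4.48% to 7.46% of all probe sets reached that unadjusted p. Without both replicates 2 and 3 the first 2 counts were 0 and 1 (5.22% of all probe sets). A second quantile normalization gave 5 other clock genes (2921 of all 45037 probe sets). The methods' t-test gave 0 clock probe sets and 1 rhythmic gene (2086 of all probe sets). With the replicate number as a block, which leaves out mdx HRTΔIKKβ replicate 4, the counts were 12, 6 and 6 (2192 of all probe sets). The labels do not link hearts of the same number, and deviations of same-numbered hearts correlated at -0.08, -0.38 and -0.04. Of 9 members, 6 were correlated with Arntl over 7 hearts at an adjusted p of 0.05 (exact permutation test), and 1, Npas2, was by rank (Spearman). With group means removed, 6 passed again, and Clock, Npas2, Per3, Nr1d2 and Dbp passed by rank. The share of all genes that correlate with Arntl was not counted, so these counts have no background. Of the 9 members, 0 passed without mdx HRTΔIKKβ replicates 2 and 3, but with 5 hearts a single gene cannot fall below an adjusted p of 0.075. Over those 5 hearts r was 0.90 for Npas2 and -0.74 for Dbp. It was also -0.75 for Cry1, which was at 0.50 over 7 hearts. For the others r was 0.25 for Clock, 0.33 for Per1, 0.19 for Per2, -0.39 for Per3, 0.07 for Nr1d1 and -0.20 for Nr1d2.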

Other observations

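Genes induced by glucocorticoids, a hormone signal that also acts on Per1, were read from a list of 16. Of these, 7 were higher and 0 lower in mdx HRTΔIKKβ hearts at an unadjusted p of 0.05 in limma (3.25% and 2.95% of all genes), and 0 passed after adjustment. Mt2 (1.64 ± 0.34), Mt1 (0.76 ± 0.18), Angptl4 (1.17 ± 0.38), Fkbp5 (1.19 ± 0.42), Cebpd (0.80 ± 0.32) and Map3k6 (0.99 ± 0.41) had the smallest p-values. The count was 3 without mdx HRTΔIKKβ replicates 2 and 3 (5.22% of all probe sets), and 2 without mdx IKKβf/f replicate 3 (5.97%). The score of the list did not follow the clock arms: it was 0.01, 0.06, 0.67 and 0.38 in mdx HRTΔIKKβ replicates 1 to 4, so that replicates 2 and 3, which were alike in Arntl and Per3, differed here. Replicates 3 and 4, the highest of all hearts in Per1, had the highest scores. The other hearts did not follow Per1: replicates 1 and 2, the lowest in Per1, scored above mdx IKKβf/f replicates 1 and 3 (-0.54 and -0.60). The part of this signal in Per1 was not tested.

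Of 18 immediate early genes, which also respond to signals that induce Per1, limma put 2 higher and 1 lower past an unadjusted p of 0.05 (3.25% and 2.95% of all genes), and 0 passed adjustment. Over the 7 hearts these genes were Egr2 (0.72 ± 0.19), Fosl2 (0.52 ± 0.20) and Nr4a1 (-0.87 ± 0.21). Dusp1 (-0.29 ± 0.14), Fosb (-0.16 ± 0.11) and Jun (-0.16 ± 0.12) followed. Without mdx HRTΔIKKβ replicates 2 and 3 the counts were 0 higher and 2 lower (5.22% of all probe sets).

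At the positive end of likeness to the arm contrast stood Fabp7 (r = 0.97 over 7 hearts), an immunoglobulin kappa variable gene (0.95), the immunoglobulin gene Ighg3 (0.93), the stress factor gene Atf3 (0.92), Cdkn1a (0.91) and the lipid droplet gene Plin5 (0.90). Over the 5 hearts without mdx HRTΔIKKβ replicates 2 and 3 the values were 0.63, 0.21, 0.62, -0.13, 0.68 and 0.81.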
